A study of Rattus norvegicus with 15 samples.

Results

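Aminoacyl-tRNA synthetases are the enzymes that attach each amino acid to its transfer RNA (tRNA) before translation. Their transcripts were followed in 15 libraries of rat liver. The members were set by name, as 20 enzymes of the cytosol and 16 of the mitochondrion (symbols ending in 2). Of these 36 names, 35 matched an entry of the deposited table, which held 26407 entries in all. Each of the 20 cytosolic enzymes was found, as were 15 of the mitochondrial ones, while Ears2 matched no entry. Mars2 stood on 2 entries, of which the entry listed at 0 was set aside and the other, averaging 1.84 FPKM, was used.

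The exercised rats were Wistar rats that had run on a treadmill during weight loss and weight maintenance and were then fed ad libitum. The gap-matched rats were sedentary Wistar rats given an energy gap-matched diet after the maintenance period. The sedentary rats were Wistar rats without the treadmill, fed ad libitum. What the gap-matched diet holds is not defined in the labels, nor are age and sex. Rats of all 3 groups were relapsing, on their first day of regaining weight, with livers taken after 24 hours of refeeding. Each group had 5 libraries of whole liver. The labels number the libraries but do not say that each came from its own animal, and the spread behind each p-value may therefore be technical. The exercised and the gap-matched libraries were compared with the same 5 sedentary libraries, so those comparisons are not independent of each other.

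Each synthetase recognises its amino acid and the tRNAs that carry it, and joins them at the cost of ATP. The enzymes form a pair of structural classes, class I and class II. In animals, several cytosolic enzymes are held together with scaffold proteins in the multisynthetase complex, and nearly all mitochondrial enzymes are encoded by separate nuclear genes. When amino acids run short, uncharged tRNA activates the kinase GCN2 (Eif2ak4), which phosphorylates the initiation factor eIF2 and favours translation of the transcription factor ATF4. In mammalian cells ATF4 is known to raise transcription of many cytosolic synthetases and of enzymes that make amino acids.

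Values are FPKM, fragments scaled by transcript length and by the size of the library, so levels may be set side by side between genes per length. Fragment totals were not at hand, so intervals for counting error are left out. Relative depth ranged between 0.678 and 1 of the deepest library, and 11008 to 11365 genes reached 1 FPKM. Hepatocyte markers summed to 43936 to 56173 FPKM in exercised, 48170 to 51782 FPKM in gap-matched and 42291 to 54362 FPKM in sedentary livers. No marker of another cell type passed the adjusted test in any comparison. Of 7 Kupffer cell markers tested in exercised against sedentary livers, 6 had values above 0, the median log2 difference was 0.32, and 5 were higher at an unadjusted p under 0.05, against 10.4% of all genes. In gap-matched against sedentary livers 0 of the 7 reached that p, while both erythroid markers tested were higher at an unadjusted p under 0.05, against 5.75% of all genes. Kupffer cell markers summed to 387 to 553, 364 to 533 and 257 to 450 FPKM in exercised, gap-matched and sedentary livers, and erythroid markers to 705 to 1332, 1114 to 1675 and 589 to 1233 FPKM. The defining markers Vsig4, Cd79a, Elane, Alas2, Prss1, Ctrb1 and Pnlip were listed at 0 in every library. The part of other cell types in the results below was not tested. In whole liver, fewer cells of a type and less RNA per cell cannot be told apart.

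The promoter regions of 31 of the 35 genes were read from RefSeq on build GRCr8, as windows from 250 bases before to 50 bases after the start of the gene. They are shown because the cytosolic genes lay lower together in the comparisons below, and because ATF4 binds, with C/EBP partners, an element whose core is TGATGCAA. These 8 letters, read on both strands, were in 6 of 16 cytosolic windows and in 0 of 15 mitochondrial windows, against 0.795% of 33469 windows of the same length. Dars, Gars and Rars had no window and were not searched. In the stretches below, each in the direction of its gene, capitals mark the 8 letters.
Cars: cggcgccgcggTTGCATCAgattctggaaa
Iars: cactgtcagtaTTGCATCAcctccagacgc
Mars: gcccgttccggTTGCATCAgcgtgggctcc
Nars: cctaggtgatcTGATGCAAcgcttcagtca
Tars: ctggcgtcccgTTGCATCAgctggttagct
Yars: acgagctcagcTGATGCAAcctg

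The stretches lie at chr1:208225334-208225363 (minus strand) for Cars, chr17:15193658-15193687 (minus) for Iars, chr7:65023752-65023781 (minus) for Mars, chr18:60275778-60275807 (minus) for Nars, chr2:62114811-62114840 (minus) for Tars and chr5:146820190-146820212 (plus) for Yars. The core began 27 bases before the start in Tars, 24 in Iars, 17 in Mars and 14 in Nars. In Cars and Yars it lay after the start, from bases 18 and 39. The looser form TGATGNAA, which contains the first motif, was found in the same 6 windows and in 3.98% of all windows. The palindrome TGACGTCA was in 0 of the 31 windows and in 1.83% of all. The E-box CACGTG was in 4 cytosolic windows (Farsb, Iars, Tars and Vars), in 0 mitochondrial windows and in 6.42% of all. A match describes letters and is not a measured binding site, and the build of these windows is not that of the expression table. Whether the core or ATF4 has a part in the lower levels was not tested.

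The 250 bases before the start of Iars and Tars, both lower in exercised livers, show where the core lies relative to the start at the right-hand end. They span chr17:15193653-15193902 (minus strand) for Iars and chr2:62114803-62115052 (minus strand) for Tars.
Iars: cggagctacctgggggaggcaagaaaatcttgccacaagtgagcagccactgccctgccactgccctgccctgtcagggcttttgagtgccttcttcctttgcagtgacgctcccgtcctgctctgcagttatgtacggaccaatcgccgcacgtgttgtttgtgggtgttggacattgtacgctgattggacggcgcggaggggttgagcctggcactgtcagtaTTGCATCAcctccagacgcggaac
Tars: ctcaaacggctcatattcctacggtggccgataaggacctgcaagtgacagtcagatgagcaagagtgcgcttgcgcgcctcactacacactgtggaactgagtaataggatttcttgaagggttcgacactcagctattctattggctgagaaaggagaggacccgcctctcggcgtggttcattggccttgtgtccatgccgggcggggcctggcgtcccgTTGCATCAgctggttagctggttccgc

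By level, the most abundant member was the bifunctional glutamyl-prolyl enzyme Eprs, with a mean of 74.0 FPKM over the 15 libraries. Tars (threonine) followed with 69.2 FPKM and Aars (alanine) with 68.3 FPKM. These 3 neighbours overlapped between libraries, since Eprs ranged over 62.1 to 90.5 FPKM. At the other end of the cytosolic enzymes stood Vars (valine) with 8.41 FPKM and Iars (isoleucine) with 9.497 FPKM. The mitochondrial enzymes averaged between 17.1 FPKM for Tars2 and 1.84 FPKM for Mars2, and their upper part overlapped with the lower cytosolic enzymes.

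Cytosolic and mitochondrial enzymes were paired by symbol. Phenylalanine (Farsa, Farsb and Fars2) and proline (Eprs and Pars2), though measured on both sides, are thus left out. For 13 amino acids such a pair was found. The cytosolic transcript was the more abundant in every library for 10 of these pairs, with a mean ratio of 17.2 for Aars over Aars2 and 16.6 for Mars over Mars2, the methionine enzymes. Vars over Vars2 had a ratio of 1.23 and was above 1 in 14 of 15 libraries. For cysteine the ratio Cars over Cars2 was 0.973 and was above 1 in 7 of 15 libraries. Among the 13 pairs, only the isoleucine pair ran the other way in nearly every library. Its Iars over Iars2 ratio was 0.691, above 1 in 1 of 15 libraries.

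**Figure D1:**
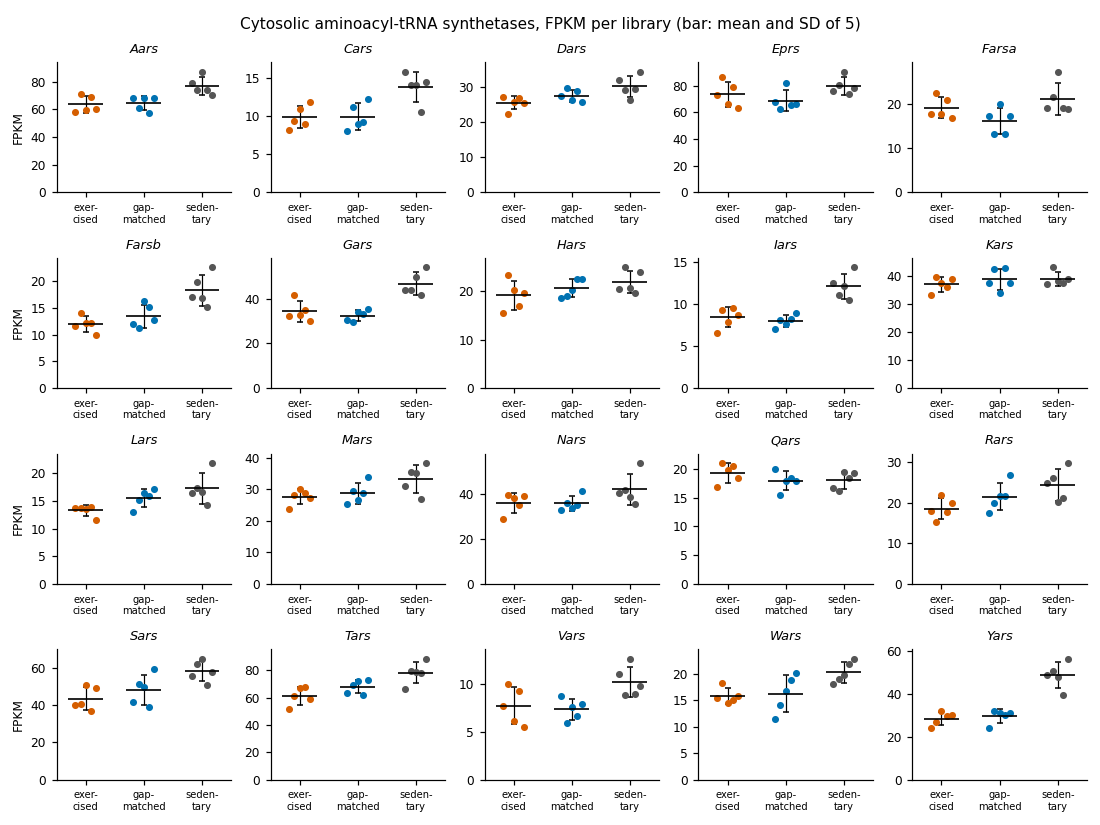
FPKM of the 20 cytosolic synthetases per library (vertical axis, linear from 0), with exercised, gap-matched and sedentary livers from left to right, 5 points a group, and a bar for the mean with its SD. Yars was between 23.9 and 32.1 FPKM in exercised and between 24.2 and 32.2 FPKM in gap-matched livers, against 39.5 to 56.2 FPKM in sedentary livers.

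The mean levels of the cytosolic synthetases were lower in exercised than in sedentary livers for nearly every enzyme. The log2 difference was below 0 for 19 of 20 enzymes and its median was -0.34, against 48.7% of the 11216 genes tested and a median of 0.01. Yars, Farsb, Iars, Gars and Tars fell, 5 of 20 (limma, Benjamini-Hochberg adjusted p under 0.05 over all genes), and 0 rose. Of all genes tested, 3.26% fell and 2.51% rose. At an unadjusted p under 0.05, 14 of 20 were lower, against 10.6% of all genes. These differences are on the log2(FPKM + 1) scale, which understates changes of genes near 1 FPKM.

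Yars (ENSRNOG00000007213), which charges tyrosine tRNA, was at 23.9, 26.9, 32.1, 29.5 and 30.2 FPKM in exercised livers, against 49.0, 50.6, 47.8, 39.5 and 56.2 FPKM in sedentary livers. Every exercised library lay below every sedentary one. The log2 difference was -0.75 ± 0.11 (SE, n = 5 each; limma adjusted p = 0.0016), a ratio of 0.595, and with any 1 library left out the adjusted p was at most 0.00612.

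Farsb (ENSRNOG00000014119), the beta subunit of the phenylalanine enzyme, was at 11.5, 14.1, 12.2, 12.1 and 9.84 FPKM in exercised livers, against 17.0, 19.8, 16.8, 15.1 and 22.6 FPKM in sedentary livers. The groups did not overlap, and Farsb fell by 0.57 ± 0.12 on the log2 scale (limma adjusted p = 0.0141). The alpha subunit of the same enzyme, Farsa, did not pass. Its values ran between 17.0 and 22.5 FPKM in exercised livers and between 19.1 and 27.5 FPKM in sedentary livers, a difference of -0.13 ± 0.13 (limma adjusted p = 0.62). Whether the subunits differed from each other was not tested.

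Iars (ENSRNOG00000014616), the isoleucine enzyme of the multisynthetase complex, was at 6.59, 9.24, 7.92, 9.57 and 8.71 FPKM in exercised livers, against 12.5, 11.1, 12.2, 10.5 and 14.3 FPKM in sedentary livers. The groups did not overlap here either. The log2 difference was -0.48 ± 0.10 (limma adjusted p = 0.0142).

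Gars (ENSRNOG00000011052), the glycine enzyme, which in mammals also serves mitochondria, was at 32.4, 41.7, 32.6, 34.8 and 29.8 FPKM in exercised livers, against 43.8, 43.8, 49.7, 41.6 and 53.9 FPKM in sedentary livers. Exercised library 2 reached just above the lowest sedentary library, and the other 4 lay below the sedentary range. The log2 difference was -0.44 ± 0.10 (limma adjusted p = 0.0173).

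Tars (ENSRNOG00000019023), the threonine enzyme, was at 51.8, 61.1, 67.4, 68.1 and 59.2 FPKM in exercised livers, against 66.5, 79.8, 78.8, 78.0 and 88.3 FPKM in sedentary livers. Sedentary library 1 lay among the exercised values. The log2 difference was -0.34 ± 0.09 (limma adjusted p = 0.0418), close to the threshold. It no longer passed without sedentary library 2, 3, 4 or 5 or without exercised library 1, 2 or 5 (limma adjusted p between 0.066 and 0.106).

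Several enzymes stood just outside the threshold. Sars, the serine enzyme, was at 39.9, 40.6, 50.4, 36.9 and 49.1 FPKM in exercised livers, against 55.5, 61.6, 64.6, 50.6 and 57.8 FPKM in sedentary livers, without overlap (log2 difference -0.42 ± 0.12, limma adjusted p = 0.0509). It passed without sedentary library 4 and without exercised library 3 or 5 (limma adjusted p between 0.0427 and 0.0444). Cars, the cysteine enzyme, averaged 9.87 ± 1.48 FPKM in exercised and 13.8 ± 1.95 FPKM in sedentary livers (SD, n = 5 each; -0.45 ± 0.13, limma adjusted p = 0.0508). It passed without sedentary library 4 or exercised library 5 (limma adjusted p = 0.022 and 0.0359). Lars, the leucine enzyme, ran between 11.6 and 13.8 FPKM in exercised and between 14.2 and 21.8 FPKM in sedentary livers (-0.35 ± 0.10, limma adjusted p = 0.0613). The groups did not overlap, and Lars passed without sedentary library 4 (limma adjusted p = 0.0331).

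For the remaining cytosolic enzymes the groups overlapped. Vars (-0.38), Rars (arginine, -0.38), Wars (tryptophan, -0.34), Aars (-0.27), Mars (-0.26), Dars (aspartate, -0.23), Nars (asparagine, -0.21) and Hars (histidine, -0.19) had log2 differences of this middle range, and none passed. Eprs, at -0.12, and the lysine enzyme Kars, at -0.07, differed by about their SE of 0.10 and 0.08. The glutamine enzyme Qars was the single cytosolic member with a value above 0. It was between 16.9 and 21.0 FPKM in exercised livers and between 16.2 and 19.5 FPKM in sedentary livers (0.09 ± 0.09, limma adjusted p = 0.594). Every exercised library lay below every sedentary one for 5 of 20 enzymes (Yars, Iars, Farsb, Sars and Lars), against 3.66% of all genes.

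Summed over the 20 cytosolic enzymes, the level was 523, 615, 585, 589 and 560.5 FPKM in exercised livers, against 682, 719, 737, 646 and 768 FPKM in sedentary livers. No exercised library reached the lowest sedentary one. Within groups, single libraries were often the extreme one for the cytosolic enzymes. Among exercised livers, library 2 was highest for 11 of the 20 enzymes and library 1 lowest for 10. Among sedentary livers, library 5 was highest for 11 and library 4 lowest for 11. Library 5 was also the shallowest of the series, at a relative depth of 0.678.

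**Figure D2:**
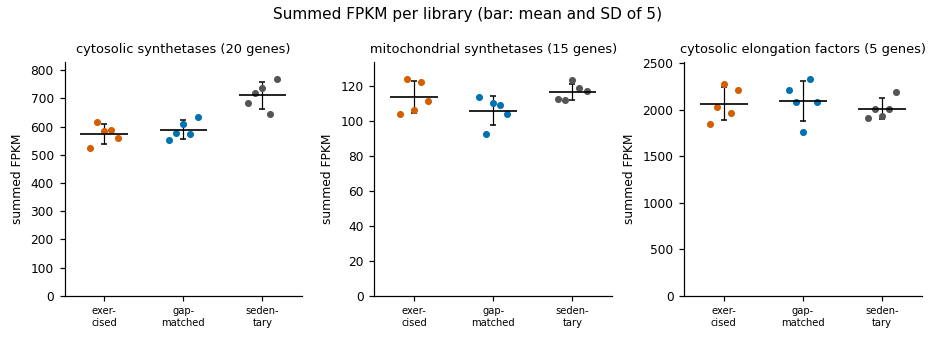
Summed FPKM per library (vertical axes, linear from 0) of the 20 cytosolic synthetases, the 15 mitochondrial synthetases and 5 cytosolic elongation factors, with a bar for the mean and SD of 5 libraries. The cytosolic synthetases summed to 523 to 615 FPKM in exercised and 552 to 635 FPKM in gap-matched livers, against 646 to 768 FPKM in sedentary livers, while the groups overlapped for the other 2 sums.

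Gap-matched livers, from rats that had not run, were set against sedentary livers next. The log2 difference was below 0 for 20 of 20 enzymes, against 57.2% of all genes tested, with a median of -0.23 against -0.03 for all genes. Yars, Iars and Gars fell (3 of 20) and 0 rose, where 2.23% of all genes fell and 0.82% rose (limma, adjusted p under 0.05). At an unadjusted p under 0.05, 11 of 20 were lower, against 12% of all genes. Kars and Qars, both at -0.01, turned above 0 with median-of-ratios scaling and with quantile normalization, and each did so without some single libraries.

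Yars was at 24.2, 32.2, 31.0, 30.1 and 31.3 FPKM in gap-matched livers, against 39.5 to 56.2 FPKM in sedentary livers. Its log2 difference was -0.69 ± 0.11 (limma adjusted p = 0.00526). Iars was at 6.98, 8.04, 7.62, 8.21 and 8.96 FPKM in gap-matched livers, below the sedentary range of 10.5 to 14.3 FPKM. It differed by -0.55 ± 0.10 (limma adjusted p = 0.0118). Gars was at 30.4, 29.4, 33.9, 33.0 and 35.2 FPKM, again below each sedentary library, whose lowest value was 41.6 FPKM. Its log2 difference was -0.51 ± 0.10 (limma adjusted p = 0.0118). For these 3 enzymes the call held without any 1 library, with adjusted p of at most 0.0354 for Iars and for Gars and 0.0215 for Yars.

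Farsb and Tars, which fell in exercised livers, did not pass in gap-matched ones. Farsb was at 11.9, 11.2, 16.3, 15.1 and 12.8 FPKM in gap-matched livers, and its highest library lay inside the sedentary range of 15.1 to 22.6 FPKM (-0.41 ± 0.12, limma adjusted p = 0.0809). Without gap-matched library 3 it passed (limma adjusted p = 0.0493). Tars was between 62.2 and 72.6 FPKM in gap-matched livers and between 66.5 and 88.3 FPKM in sedentary livers (-0.20 ± 0.09, limma adjusted p = 0.279). Cars differed by -0.45 ± 0.13 (limma adjusted p = 0.0727) and passed without sedentary library 4 (limma adjusted p = 0.031). Vars at -0.43, Farsa at -0.37, Wars at -0.32 and Sars at -0.28 did not pass either. Every gap-matched library lay below every sedentary one for Yars, Iars, Gars, Aars and Vars, 5 of 20, against 4.56% of all genes. The summed cytosolic level was 552, 577, 611, 572 and 635 FPKM in gap-matched livers, each below the lowest sedentary sum of 646 FPKM.

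**Figure D3:**
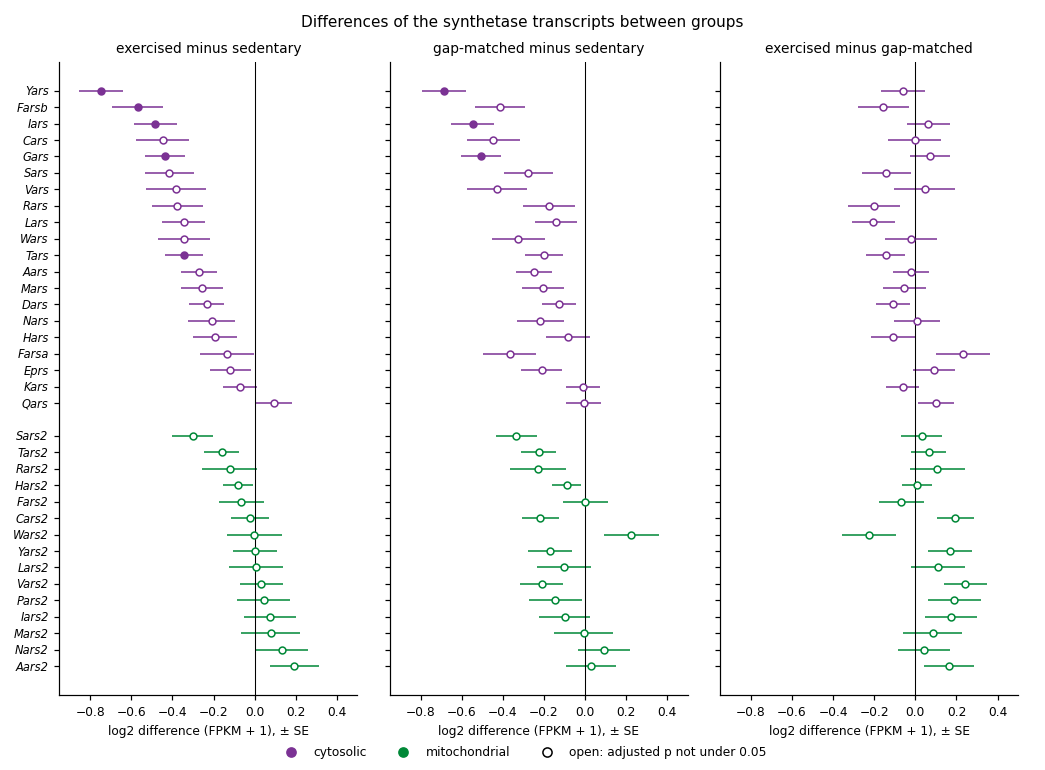
Log2 difference of each of the 35 synthetases on the log2(FPKM + 1) scale (horizontal axis) in the 3 comparisons, with bars for the SE and filled points where the limma adjusted p was under 0.05. Against sedentary livers, 5 cytosolic enzymes passed in exercised and 3 in gap-matched livers, and between exercised and gap-matched livers 0 passed.

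Set directly against gap-matched livers, exercised livers showed no called synthetase. By limma, 0 of 20 cytosolic enzymes passed and 0 had an unadjusted p under 0.05, where 0.687% of all genes rose, 0.214% fell and 16.5% had an unadjusted p under 0.05. Yars, at 28.5 ± 3.17 FPKM in exercised and 29.8 ± 3.20 FPKM in gap-matched livers (SD, n = 5 each), differed by -0.06 ± 0.11 (limma adjusted p = 0.81). The widest cytosolic differences were 0.23 ± 0.13 for Farsa and -0.20 ± 0.10 for Lars (limma adjusted p = 0.388 and 0.34). The values were below 0 for 13 of 20 enzymes, against 42.2% of all genes, with a median of -0.04 against 0.04 for all genes. With the libraries scaled to the same sum the count was 10 of 20. Median-of-ratios scaling and quantile normalization raised the count instead, since Nars turned below 0 with both and Vars with quantiles. A difference under the threshold does not show that the groups are alike, and with SEs of 0.08 to 0.15 on the log2 scale small differences could not be resolved.

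The cytosolic enzymes were next divided by architecture. Of all genes, 3.26% fell in exercised and 2.23% in gap-matched livers against sedentary ones. Of the 8 enzymes held in the multisynthetase complex, 1 (Iars) fell in exercised and 1 (Iars) in gap-matched livers against sedentary ones. Of the 12 enzymes outside the complex, 4 fell in exercised livers (Yars, Farsb, Gars and Tars) and 2 in gap-matched livers (Yars and Gars). The median log2 difference was -0.25 for members of the complex and -0.36 for the others in exercised livers, and -0.16 and -0.35 in gap-matched livers. By structural class, 2 of 10 class I enzymes and 3 of 10 class II enzymes fell in exercised livers, and 2 and 1 in gap-matched livers. The bifunctional Eprs was counted in class I only. Whether these divisions differ was not tested.

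Of the scaffold proteins of the complex, 1 of 3 fell in exercised against sedentary livers, where 3.26% of all genes fell. Aimp1, whose product is also cleaved to a secreted cytokine, was at 23.6, 21.2, 26.9, 21.2 and 24.5 FPKM in exercised livers, against 29.2, 45.2, 27.0, 31.4 and 44.1 FPKM in sedentary livers. Each exercised library lay below each sedentary one, by a narrow margin at the edge. Aimp1 fell by 0.55 ± 0.14 on the log2 scale (limma adjusted p = 0.0368). It did not pass without sedentary library 2 or 5 or exercised library 1, 2 or 4 (limma adjusted p between 0.071 and 0.098). In gap-matched livers it was between 28.0 and 39.4 FPKM, a difference of -0.04 ± 0.14 from sedentary livers (limma adjusted p = 0.921). Exercised set directly against gap-matched livers, the difference was -0.50 ± 0.14 without overlap, and it did not pass (limma adjusted p = 0.109). Aimp2 (-0.26 and -0.32) and Eef1e1 (-0.30 and -0.17) passed in neither exercised nor gap-matched livers against sedentary ones.

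The 6 cytosolic genes shown with the TGATGCAA core had log2 differences between -0.75 (Yars) and -0.21 (Nars) in exercised livers against sedentary ones. The 10 with a window but without the core ran between -0.57 (Farsb) and 0.09 (Qars). The medians with and without the core were -0.40 and -0.27 there, and -0.33 and -0.24 in gap-matched livers against sedentary ones. The ranges overlapped in both comparisons, and whether the divisions differ was not tested. The gene that stood apart most, Yars, had the core after the start, as did Cars.

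The mitochondrial synthetases charge the tRNAs of the organelle's own translation, and their values lay on both sides of 0. In exercised livers 0 of 15 passed against sedentary ones, 8 values were below 0 and 7 above, and the median was 0.00. Of all genes, 48.7% had values below 0. An unadjusted p under 0.05 was found for 1 of 15, a lower one, against 10.6% of all genes lower at that p. In gap-matched livers 0 of 15 passed, and the median was -0.10. There 11 values were below 0, against 57.2% of all genes, and 3 were lower at an unadjusted p under 0.05, against 12% of all genes. The sum over the 15 enzymes was 104 to 124 FPKM in exercised and 92.8 to 114 FPKM in gap-matched livers, against 112 to 123 FPKM in sedentary livers, and the groups overlapped. No test of the difference between the cytosolic and mitochondrial enzymes was run.

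**Figure D4:**
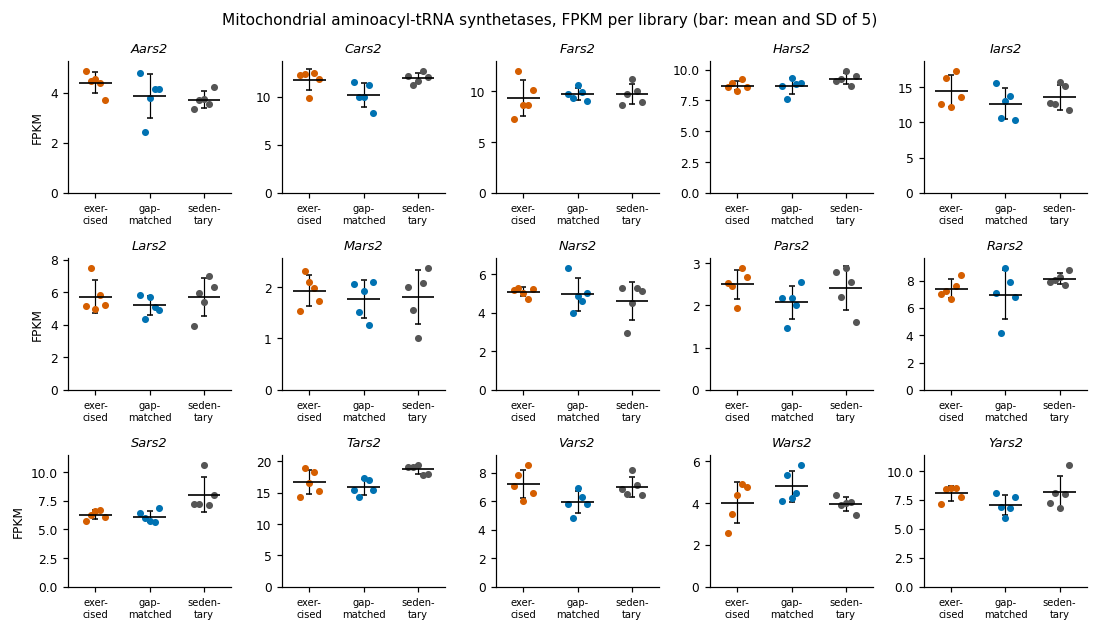
FPKM of the 15 mitochondrial synthetases per library (vertical axis, linear from 0), exercised, gap-matched and sedentary livers from left to right, with a bar for the mean and SD of 5 libraries. Sars2 lay between 5.72 and 6.66 FPKM in exercised and between 5.65 and 6.83 FPKM in gap-matched livers, below each sedentary library, while for most other enzymes the groups overlapped.

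Sars2, the mitochondrial serine enzyme, had the values farthest below 0. It was at 5.72, 6.29, 6.60, 6.66 and 6.08 FPKM in exercised livers and at 6.39, 6.01, 5.69, 5.65 and 6.83 FPKM in gap-matched livers, against 7.21, 7.23, 10.6, 7.11 and 8.04 FPKM in sedentary livers. Neither group overlapped with the sedentary libraries, yet the differences of -0.30 ± 0.10 and -0.33 ± 0.10 did not pass (limma adjusted p = 0.0886 and 0.083). Tars2 was between 14.3 and 17.3 FPKM in gap-matched livers, below the sedentary range of 17.9 to 19.4 FPKM (-0.22 ± 0.08, limma adjusted p = 0.17). In exercised livers Tars2 ran between 14.4 and 19.0 FPKM and overlapped with the sedentary libraries.

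Exercised livers set against gap-matched ones had values above 0 for 13 of 15 mitochondrial enzymes, with a median of 0.11, and the exceptions were Wars2 at -0.23 and Fars2 at -0.07. The share of all genes above 0 was also over the middle in this comparison, with 6479 of 11216, and scaling by the median of ratios or by quantiles brought the mitochondrial count below 0 to 4 and 5 of 15. By limma, 0 of 15 passed, and Vars2 and Cars2 were higher at an unadjusted p under 0.05, 2 of 15 against 11.2% of all genes. Vars2 was at 7.05, 7.84, 6.05, 8.54 and 6.58 FPKM in exercised livers, against 5.82, 4.79, 6.93, 6.31 and 5.82 FPKM in gap-matched livers, with overlap (0.24 ± 0.10, limma adjusted p = 0.26). Cars2 was at 12.2, 12.4, 9.91, 12.5 and 11.9 FPKM in exercised livers, against 11.6, 9.99, 9.96, 11.2 and 8.29 FPKM in gap-matched livers (0.19 ± 0.09, limma adjusted p = 0.297). Aars2, Iars2, Lars2, Mars2, Nars2, Pars2, Rars2, Yars2 and Hars2 overlapped between all groups, and Mars2 and Pars2, at 1.84 and 2.33 FPKM, are the members whose fold differences the log2(FPKM + 1) scale understates most.

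Other genes of tRNA charging and its use were read in lists. By limma, no member passed in any comparison among tRNA editing and related factors (5 genes, Tarsl2 included) or selenocysteinyl-tRNA synthesis (3 of 4 found). The same held for tRNA maturation (9) and cytosolic elongation factors (5). Of all genes, 3.26% fell and 2.51% rose in exercised livers against sedentary ones, and 2.23% fell and 0.82% rose in gap-matched ones. In exercised against gap-matched livers 0.214% fell and 0.687% rose. Cytosolic elongation factors summed to 1846 to 2277 FPKM in exercised, 1766 to 2329 FPKM in gap-matched and 1907 to 2197 FPKM in sedentary livers. Their most abundant members were Eef1a1, at 0.04 ± 0.09 in exercised and 0.12 ± 0.09 in gap-matched livers against sedentary ones, and Eef2, at 0.08 ± 0.10 and 0.03 ± 0.10. Eef1d was at -0.19 ± 0.09 and -0.20 ± 0.09, and Eef1b2 at -0.11 ± 0.12 and -0.01 ± 0.12. Among editing factors, Dtd2, a deacylase of mischarged tRNA, differed by -0.36 ± 0.11 in exercised livers against sedentary ones (limma adjusted p = 0.0637). Prorsd1, an editing domain for mischarged prolyl-tRNA, was at -0.53 ± 0.16 in exercised against gap-matched livers (limma adjusted p = 0.138). Aarsd1 and Dtd1, which also edit mischarged tRNA, were within -0.24 and 0.08 in each comparison.

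Trit1, which modifies a base next to the anticodon, was at -0.30 ± 0.09 in gap-matched against sedentary livers (limma adjusted p = 0.0804). Pus1, a pseudouridine synthase, was at -0.48 ± 0.13 there (limma adjusted p = 0.0679). Nsun2, a tRNA cytosine methyltransferase, was at -0.26 ± 0.08 in exercised against sedentary livers (limma adjusted p = 0.057). Trnt1, which adds the CCA end of tRNA, was at 0.32 ± 0.13 in exercised against gap-matched livers (limma adjusted p = 0.236). Of the selenocysteine genes, Sepsecs was at -0.15 ± 0.08 in exercised and -0.14 ± 0.08 in gap-matched livers against sedentary ones, and Sephs1 and Sephs2 lay between 0.00 and 0.10.

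Gatc, a subunit of the amidotransferase that makes glutaminyl-tRNA in mitochondria in place of a glutaminyl-tRNA synthetase, was at 15.9, 20.9, 20.1, 20.01 and 21.2 FPKM in exercised livers, against 23.4, 26.8, 25.0, 23.9 and 24.2 FPKM in sedentary livers. It fell without overlap (-0.32 ± 0.09, limma adjusted p = 0.0385), 1 of 3 measured genes of its list, against 3.26% of all genes. The call held in 2 of 10 fits with a library left out, those without exercised library 2 or 5, and the adjusted p otherwise reached 0.102. In gap-matched livers Gatc was between 18.2 and 21.7 FPKM (-0.26 ± 0.09, limma adjusted p = 0.119). Gfm1, the mitochondrial elongation factor G, was at 32.4, 34.8, 38.6, 31.4 and 34.8 FPKM in gap-matched livers, against 41.4, 47.1, 48.8, 45.2 and 46.4 FPKM in sedentary livers. It fell by 0.40 ± 0.08 on the log2 scale without overlap (limma adjusted p = 0.0135), 1 of 4 mitochondrial elongation factors, against 2.23% of all genes. All 4 values were below 0 there, against 57.2% of all genes, with a median of -0.32. By limma, 3 of the 4 were lower at an unadjusted p under 0.05, against 12% of all genes. In exercised livers Gfm1 was at -0.20 ± 0.08 (limma adjusted p = 0.158).

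Among 16 regulators of the amino acid response, 5 fell and 1 rose in exercised livers, 3 fell and 0 rose in gap-matched livers, both against sedentary livers, and 1 fell in exercised against gap-matched livers. Of all genes, 3.26% fell and 2.51% rose in exercised livers, 2.23% fell and 0.82% rose in gap-matched livers, and 0.214% fell in exercised against gap-matched livers. The transcript of Atf4 was at 116, 125, 120, 108 and 139 FPKM in exercised livers and at 118, 125, 128, 121 and 115 FPKM in gap-matched livers, against 162, 186, 172, 145 and 161 FPKM in sedentary livers. Neither group overlapped with the sedentary libraries. Atf4 fell by 0.44 ± 0.08 in exercised and by 0.44 ± 0.08 in gap-matched livers (limma adjusted p = 0.00751 and 0.0118), and passed without any 1 library. ATF4 protein, which is set mainly by translation, was not measured.

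Eif2ak4, which encodes the sensor kinase GCN2, was at 3.52, 3.56, 3.82, 3.97 and 3.32 FPKM in exercised livers and at 4.82, 4.13, 4.36, 3.79 and 4.34 FPKM in gap-matched livers, against 5.17, 5.68, 5.84, 5.29 and 5.49 FPKM in sedentary livers. Both groups lay below each sedentary library. It fell by 0.49 ± 0.08 in exercised livers (limma adjusted p = 0.00271) and by 0.30 ± 0.08 in gap-matched livers (limma adjusted p = 0.0487). The second call held only without gap-matched library 1, and the adjusted p reached 0.119 without sedentary library 2.

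**Figure D5:**
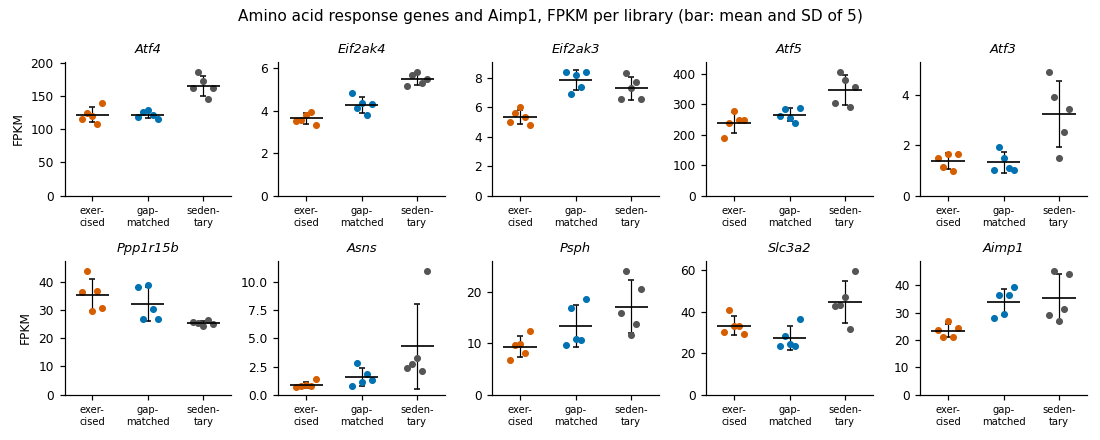
FPKM per library (vertical axis, linear from 0) of the amino acid response genes and the scaffold gene Aimp1 that passed the test in some comparison, exercised, gap-matched and sedentary livers from left to right, with a bar for the mean and SD of 5 libraries. Atf4 was at 108 to 139 FPKM in exercised and 115 to 128 FPKM in gap-matched livers, against 145 to 186 FPKM in sedentary livers, and Eif2ak3 was lower in exercised livers than in both other groups.

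Eif2ak3, which encodes PERK, the eIF2 kinase of the endoplasmic reticulum, was at 4.99, 5.62, 6.002, 5.36 and 4.77 FPKM in exercised livers, against 8.40, 6.92, 8.18, 7.41 and 8.37 FPKM in gap-matched livers and 6.54, 8.33, 7.32, 7.71 and 6.56 FPKM in sedentary livers. Exercised libraries lay below both other groups. Eif2ak3 fell by 0.38 ± 0.09 against sedentary livers (limma adjusted p = 0.0191) and by 0.48 ± 0.09 against gap-matched livers (limma adjusted p = 0.0255). The first call was lost without sedentary library 2 or exercised library 1 (limma adjusted p = 0.0583 and 0.051), the second without exercised library 1, 2 or 4 or gap-matched library 5 (limma adjusted p between 0.0542 and 0.0647).

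Atf5, a transcription factor translated under the same control as ATF4, averaged 240 ± 32.9 FPKM in exercised and 347 ± 49.0 FPKM in sedentary livers (SD, n = 5 each). It fell without overlap (-0.53 ± 0.12, limma adjusted p = 0.0146), and was at -0.38 ± 0.12 in gap-matched livers (limma adjusted p = 0.0899). Atf3, a stress-induced repressor, was at 0.973 to 1.65 FPKM in exercised and 1.03 to 1.95 FPKM in gap-matched livers, against 1.498 to 4.91 FPKM in sedentary livers. It fell in both, by 0.79 ± 0.20 and 0.83 ± 0.20 (limma adjusted p = 0.0278 and 0.0303). Each Atf3 call was lost in 6 of 10 fits with a library left out. Both were lost without sedentary library 1, 2 or 5, the exercised one also without exercised library 1, 2 or 4, and the gap-matched one also without gap-matched library 1, 4 or 5 (limma adjusted p of up to 0.0858).

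Ppp1r15b, which guides the phosphatase that removes phosphate from eIF2, was the regulator that rose. It was at 36.3, 43.7, 29.5, 36.7 and 30.5 FPKM in exercised livers, against 25.5, 25.5, 24.3, 26.3 and 24.8 FPKM in sedentary livers, without overlap (0.45 ± 0.12, limma adjusted p = 0.0391). The call held in 2 of 10 fits with a library left out, those without exercised library 3 or 5. In gap-matched livers Ppp1r15b was between 26.8 and 38.8 FPKM, above each sedentary library (0.32 ± 0.12, limma adjusted p = 0.179).

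A list of 21 known targets of ATF4 held mainly enzymes and carriers of amino acids, and also Trib3, Sesn2, Ddit4, Fgf21 and Vldlr, which are neither. Of the 21, 16 reached a mean of 1 FPKM and were tested. In exercised livers 2 fell, against 3.26% of all genes, 0 rose and 14 values were below 0, against 48.7% of all genes, with a median of -0.40. In gap-matched livers 1 fell (Slc3a2), against 2.23% of all genes, 0 rose and 12 values were below 0, against 57.2% of all genes, with a median of -0.29. Exercised set directly against gap-matched livers, 0 of the 16 passed, Asns and Psph included, where 0.214% of all genes fell and 0.687% rose. There 12 values were below 0, against 42.2% of all genes, with a median of -0.17. Asns, asparagine synthetase, which makes the amino acid and does not charge tRNA, was at 0.657, 0.743, 0.844, 0.769 and 1.38 FPKM in exercised livers, against 2.38, 2.71, 3.30, 2.11 and 10.996 FPKM in sedentary livers. Sedentary library 5 stood far above the rest. Asns fell by 1.30 ± 0.30 on the log2(FPKM + 1) scale (limma adjusted p = 0.02), a call lost without exercised library 1 (limma adjusted p = 0.0514).

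Psph, the last enzyme of serine synthesis, was at 6.76 to 12.4 FPKM in exercised and 11.5 to 24.0 FPKM in sedentary livers and fell by 0.79 ± 0.21 (limma adjusted p = 0.0391). This call held in 3 of 10 fits, those without sedentary library 3 or 4 or exercised library 5. Slc3a2, the heavy chain shared by several amino acid carriers, was at 23.5, 28.3, 24.4, 23.6 and 36.7 FPKM in gap-matched livers, against 42.9, 43.2, 47.3, 31.5 and 59.6 FPKM in sedentary livers, and fell by 0.69 ± 0.15 (limma adjusted p = 0.0249). Without sedentary library 2, 3 or 5 or gap-matched library 1 or 4 it did not pass (limma adjusted p between 0.0593 and 0.0616). In exercised livers Slc3a2 was at -0.40 ± 0.15 (limma adjusted p = 0.145), and it passed without sedentary library 4 (limma adjusted p = 0.0476).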

How the data were processed

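Transcript levels were measured by RNA-seq of total RNA in 15 libraries of rat liver. The authors deposited FPKM, 1 value per gene and library, and the submitters' processing notes name Trimmomatic, Cufflinks and the build Rnor_5.0, without versions. The aligner and its settings are not given in the sources used here. The table held 26407 entries. A repeated identifier removed 2, and 2 genes with a placeholder in place of a value, Alb and Slc27a2, were left out. Columns were matched to libraries by the name in each label.

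Genes had to average 1 FPKM or more over the 15 libraries, which left 11216 genes and all 35 members, and were analysed as log2(FPKM + 1). One limma model (version 3.58.1, R 4.3.3) held all libraries, let the variance follow the mean level, and gave two-sided tests. Benjamini-Hochberg adjustment ran over all genes within a comparison, with a threshold of 0.05. The fit was tested on simulated data. Relative depth came from the steps between values of genes under 0.3 FPKM, in log2 bins of 0.04. Tables and plots used Python 3.11.15, numpy 2.4.6, pandas 2.3.3 and matplotlib 3.10.9. Motifs were searched on both strands in RefSeq windows of 300 bases. The window of 1 cytosolic gene is not reported here and stays out of the members' motif counts, for a reason unrelated to its values.

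The members and the gene lists were chosen with earlier results of these data known. Every member is described, with the genes of each list that passed, or up to 4 with the smallest p where none did, and a few others chosen after their values were seen (Aimp2 and Eef1e1). Genes that share sequence with close copies, Eef1a1 among them, are uncertain. Alternatives were other pseudocounts, filters, scalings, variance models and samples in the fit, and leaving out each library.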

Additional observations from a re-analysis of the deposited data

Results flagged for a closer look

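In each group of 5 libraries, the highest or lowest library was marked where its gap to the nearest other library was over 0.71 of the range of the group. This marked 12 of 186 combinations of 62 genes and 3 groups, 6 of them among the 105 of the synthetases, and chance marks about 1 in 20.

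Among cytosolic synthetases, Eprs was at 82.3 FPKM in gap-matched library 3, where the others held 62.1 to 68.0 FPKM. Kars was at 43.1 FPKM in sedentary library 2, above 37.2 to 38.9 FPKM in the others. Lars was at 11.6 FPKM in exercised library 5, below the narrow range of 13.5 to 13.8 FPKM. Yars was at 24.2 FPKM in gap-matched library 1, against 30.1 to 32.2 FPKM in the others, so this library lay on the side away from the sedentary values. Of the mitochondrial enzymes, Cars2 was at 9.91 FPKM in exercised library 3, below 11.9 to 12.5 FPKM, and Sars2 at 10.6 FPKM in sedentary library 3, above 7.11 to 8.04 FPKM.

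Among the other genes, Gatc was at 15.9 FPKM in exercised library 1 (others at least 20.01 FPKM) and Sephs2, a selenophosphate synthetase, at 166 FPKM in exercised library 4 (others at least 194 FPKM). Trit1 was at 9.58 FPKM in sedentary library 2 (others at most 8.82 FPKM), and Eef1a1 at 791 FPKM in gap-matched library 3 (others at least 935 FPKM). Asns was marked in both ad libitum groups, at 1.38 FPKM in exercised library 5 (others at most 0.844 FPKM) and at 10.996 FPKM in sedentary library 5 (others at most 3.30 FPKM).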

How the results depend on the processing

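Of 2190 values of the synthetases under another setting, 0 called values changed sign, 10 lost the call, 19 gained it and 86 uncalled values changed sign, at sizes of up to 0.115. The synthetases called in exercised against sedentary livers numbered 8 with a filter at 5 FPKM (Cars, Lars and Sars added, fewer genes being tested) and 4 to 7 without 1 library. Tars was lost with a common sum, with only the 2 groups fitted and with library weights (limma adjusted p = 0.0648, 0.0824 and 0.0523). In gap-matched against sedentary livers 3 or 4 passed, and in exercised against gap-matched livers 0 passed under every setting run. Of the other genes, with only the 2 groups fitted the calls of Aimp1, Gatc and Atf3 in exercised, of Eif2ak4, Atf3 and Slc3a2 in gap-matched livers and of Eif2ak3 between them were lost (limma adjusted p between 0.052 and 0.0861). With no filter those of Aimp1, Ppp1r15b and Psph in exercised and of Eif2ak4 and Atf3 in gap-matched livers were lost (limma adjusted p between 0.0506 and 0.0699). A common sum ended the calls of Ppp1r15b (0.103) and of Eif2ak3 against gap-matched livers (0.0659). Eif2ak4 in gap-matched livers also missed the threshold with a pseudocount of 0.1, the median of ratios and quantiles.

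Counts over all genes moved more, and the cause was not tested. In exercised against sedentary livers they were 342 to 642 without 1 library, against 648, lowest without sedentary library 2. In gap-matched against sedentary livers they were 147 to 357, against 342, lowest without sedentary library 2. In exercised against gap-matched livers they were 18 to 131, against 101, lowest without gap-matched library 2. This last count was 53 with no filter, 34 with a common sum and 16 with only the 2 groups fitted. The share of lower calls in gap-matched against sedentary livers was 73.1%, with 83.9% for a common sum and 59.7% for the median of ratios and for quantiles. In exercised against gap-matched livers it was 23.8%, with 40.2% for the median of ratios and 36.6% for quantiles. The common sum moved the median of all genes to -0.10 in gap-matched against sedentary livers.

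The labels do not say whether the replicate numbers pair the libraries. Over the genes tested, deviations of same-numbered libraries from their group means had correlations of -0.27 to 0.19. Their median was 0.02, against 0.0005 for libraries with other numbers. Correlations over all genes cannot show that pairing is absent. With the replicate block, 201 genes passed in gap-matched against sedentary livers and 20 in exercised against gap-matched livers, Sars was added in exercised livers (limma adjusted p = 0.0258), and no synthetase call was lost. The block ended the calls of Gatc, Ppp1r15b and Eif2ak3 in exercised against sedentary livers, of Eif2ak4 and Atf3 in gap-matched against sedentary livers, and of Eif2ak3 in exercised against gap-matched livers (limma adjusted p between 0.0513 and 0.123).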
